A study of Homo sapiens with 10 samples.

Results

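The genes described here are 5 members of the nucleoside diphosphate kinase family, NME1, NME2, NME3, NME4 and NME6, measured in Meg01 cells on Illumina beadchips. They were found by their gene symbol in the platform annotation, which gave 11 of the 47323 probes: 3 for NME1, 4 for NME2, 1 each for NME3 and NME4, and 2 for NME6. That is 5 of 20046 genes with a named probe, and all 11 probes passed the filter on low values. The family was chosen by the log2 values of its probes in polysomal and subpolysomal RNA, with the low polysomal NME4 already known, so differences between these RNA pools are given for the members as descriptions, without a test.

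Meg01 is an established human megakaryoblastic leukaemia line. The cells received lentivirus at a multiplicity of infection of 10, and cells expressing GFP were sorted 48 hours later. Knockdown cells carried the short hairpin sh95 against ATXN2, an RNA-binding protein that associates with poly(A)-binding protein. Control cells carried the control hairpin shc002, so virus, sorting and GFP are shared by all groups. Lysates were spun through sucrose gradients. Polysomal RNA is the pool of fractions 9 to 17, and subpolysomal RNA the pool of fractions 1 to 8, although the series description counts 8 fractions in the polysomal pool. There were 3 knockdown and 3 control arrays of polysomal RNA, which share the pair numbers P2, P4 and P5. Subpolysomal RNA gave 2 knockdown and 2 control arrays, with the pair numbers P1 and P3. The labels speak of 3 independent experiments without tying them to pair numbers, and none of the numbers is found with both RNA pools. Pool and pair therefore cannot be told apart in any polysomal to subpolysomal difference. All groups are 1 cell line and 1 hairpin each.

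Nucleoside diphosphate kinases move the terminal phosphate of a nucleoside triphosphate, usually ATP, to a nucleoside diphosphate, and so keep GTP, CTP, UTP and the deoxynucleotides supplied. NME1 and NME2 are the abundant cytosolic subunits, encoded side by side and able to mix in the same hexamers. NME4 carries a mitochondrial targeting sequence, sits on the inner mitochondrial membrane and binds cardiolipin. NME3 has been placed at the outer mitochondrial membrane, and NME6 is a more distant family member that has also been reported in mitochondria.

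The arrays had nearly equal median intensities of 193.1 to 194.3, and between 18528 and 20147 probes per array were above background. After quantile normalization every array has the same distribution, so a lower value in a pool means lower relative to the other probes of that array. It is no share of an mRNA bound to ribosomes, and in such bulk samples fewer cells with a transcript and less transcript per cell cannot be told apart. The control polysomal array P2 stood apart, with a highest deposited intensity of 140375 against 11164 to 38625 on the others, and with ACTB at 8.67 and 8.84 on its brightest probes, where the other 9 arrays read at least 12.01. ATXN2, the target of the hairpin, read 8.68, 8.69 and 8.64 in polysomal RNA of knockdown cells and 9.18, 10.77 and 9.67 in that of control cells (P2, P4 and P5), and 8.99 and 8.67 against 9.31 and 9.87 in subpolysomal RNA (P1 and P3). It was lower in the knockdown array of every pair. It did not pass the test of group means, which counts paired arrays as independent (limma adjusted p 1.0 in either pool). With the pair number as a block limma called 0 of all probes in either pool, ATXN2 included. Of 12 megakaryocyte markers on the array 6 were above background on all 10 arrays, among them NFE2, GATA1 and ITGA2B, while PF4 was above background on none and VWF on 1. Of 13 markers of other lineages 4 were above background on all 10 arrays, namely EPCAM with a mean of 11.12, HBB, PECAM1 and CD14, while CD3D and CD3E were above background on 2 arrays and MPO and ELANE on 1.

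NME4 mRNA was low in polysomal RNA and high in subpolysomal RNA, with either hairpin. Its log2 intensities in polysomal RNA were 8.89, 8.83 and 9.51 on knockdown arrays P2, P4 and P5, and 9.18, 8.80 and 9.08 on the control arrays of those pairs. In subpolysomal RNA they were 12.08 and 11.42 on knockdown arrays P1 and P3 and 12.29 and 11.41 on control arrays P1 and P3. All 6 polysomal arrays lay below all 4 subpolysomal arrays, and a gap of about the same size separated the pools in both kinds of cell. NME4 had the only 1 of the 11 member probes with such a separation. Over all 26476 probes kept, 3.22% had every polysomal array below every subpolysomal array and 2.29% had the opposite, and nothing is read from the members' count, since the family was chosen on these values. Only 1 probe measures NME4, so no second probe of the gene is at hand to set beside it.

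Polysomal minus subpolysomal RNA was -2.67 (SE 0.34, n = 3 and 2 arrays) for NME4 in knockdown cells and -2.83 (SE 0.34, n = 3 and 2) in control cells, on the log2 scale. Without control polysomal array P2, the array that stood apart, the control difference was -2.92. As ratios the differences over all arrays are 6.36-fold and 7.13-fold lower in polysomal RNA. On the deposited scale, before quantile normalization, NME4 averaged 566.1 ± 152.8 units in polysomal RNA of knockdown cells and 3817 ± 816.6 in their subpolysomal RNA (SD, n = 3 and 2). Control cells had 540.5 ± 90.4 units in polysomal and 3459 ± 584.6 in subpolysomal RNA (SD, n = 3 and 2). The difference of NME4 was number 6 from the lowest of 13737 genes in knockdown cells and number 1 in control cells, where each gene is represented by its brightest kept probe. Among all 26476 kept probes it was number 20 in knockdown and number 4 in control cells. These ranks restate the low polysomal value that was known when the family was chosen.

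The sequence around a transcript start of NME4 is shown next to that of NME3, the other member known from a mitochondrial membrane, because both have an ATG close to that start. Sequences are from RefSeq, build GRCh38.p14, where all 5 genes matched by symbol, and starts are those of its promoter windows. For NME4 that start lies inside the annotated gene, whose first base is 396729, so a start further upstream is annotated too and its sequence was not used here. In NME4, on the plus strand of chromosome 16, 24 bases lie between the start used and the first ATG, and in NME3, on the minus strand of the same chromosome, 9 bases do. No ATG occurs in the first 50 bases of NME1 or NME6, nor after 2 of the 3 annotated starts of NME2. An ATG in that window occurs in 40.2% of 35116 annotated starts. The windows of 30 bases run 5′ to 3′ and have the ATG in capitals.
NME4, chr16:397208-397237, plus strand: cgcgggccgggcgtcATGggcggcctcttc
NME3, chr16:1771520-1771549, minus strand: tcccgcaccgccatcATGatctgcctggtg

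**Figure D1:**
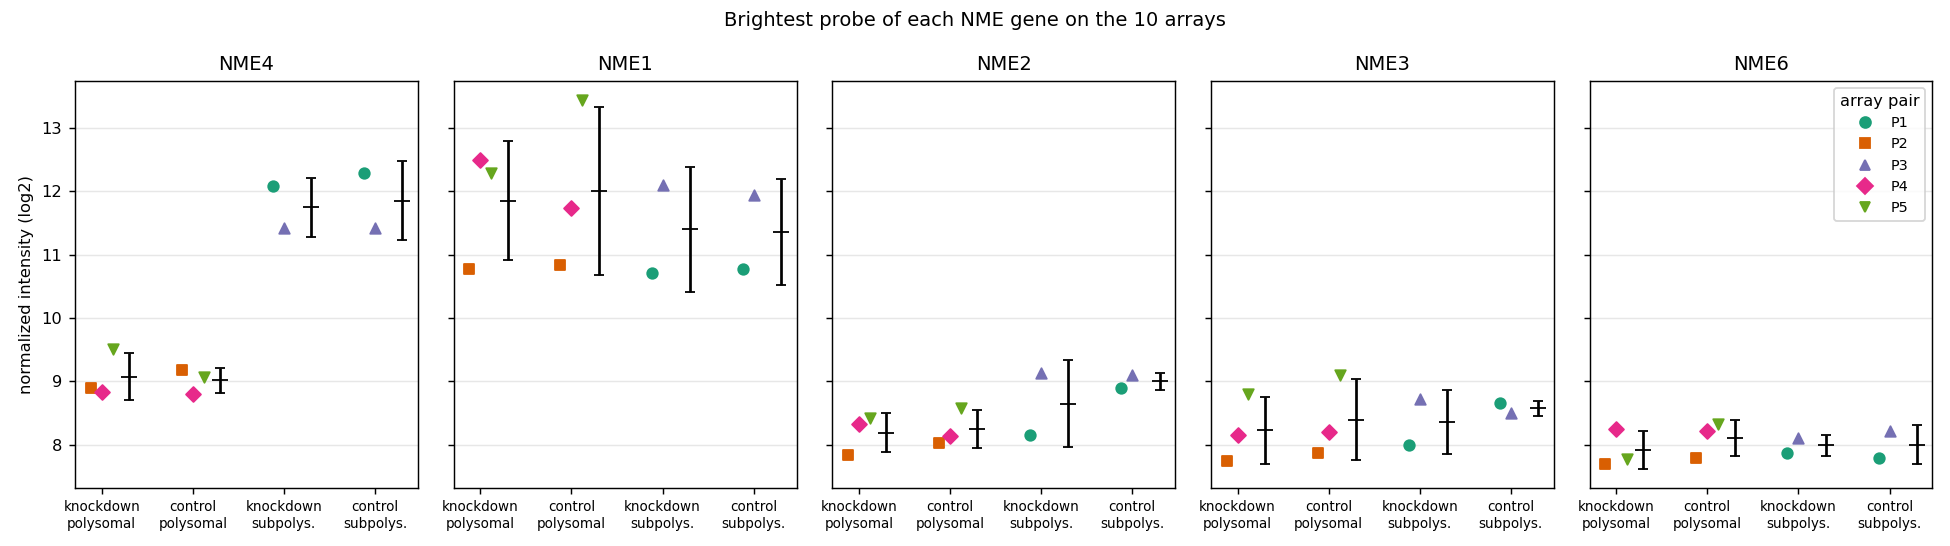
Log2 intensity (vertical axis) of the brightest probe of NME4, NME1, NME2, NME3 and NME6 on each of the 10 arrays, by group, with marker shapes for the array pairs P1 to P5 and the group mean with its SD beside the points. NME4 lies between 8.80 and 9.51 on the polysomal arrays and between 11.41 and 12.29 on the subpolysomal arrays, while the pools overlap for the other 4 genes.

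NME1, the more intensively studied cytosolic subunit and first known as a metastasis suppressor, had pools that overlapped. The brightest probe of NME1 read 10.77, 12.49 and 12.29 in polysomal RNA of knockdown cells (P2, P4 and P5) and 10.83, 11.74 and 13.45 in that of control cells. In subpolysomal RNA it read 10.70 and 12.09 on knockdown arrays P1 and P3, and 10.77 and 11.95 on the control arrays. The low values were those of pairs P1 and P2, in both pools and with both hairpins, and pairs P3, P4 and P5 were high. The difference between pools was 0.45 (SE 0.90) in knockdown cells and 0.65 (SE 0.90) in control cells, less than the SD within any of the groups (0.83 to 1.33). Its sign was not stable: leaving out 1 array gave -0.24 (without knockdown subpolysomal array P1) to 1.15 in knockdown cells and -0.07 (without control polysomal array P5) to 1.24 in control cells, and without quantile normalization it was -0.0636 in knockdown cells. A second NME1 probe had 0.62 (SE 0.81) in knockdown and 0.60 (SE 0.81) in control cells. The dimmest NME1 probe, above background on 8 of 10 arrays, ran from 7.58 to 7.88 over all arrays and differed between pools by -0.11 (SE 0.10) in knockdown and -0.05 (SE 0.10) in control cells.

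NME2, the other cytosolic subunit, also reported as a DNA-binding regulator of MYC, had overlapping pools on each of its probes. The brightest read 7.85, 8.32 and 8.42 in polysomal RNA of knockdown cells (P2, P4 and P5) and 8.02, 8.14 and 8.58 in that of control cells. In subpolysomal RNA it read 8.16 and 9.13 on knockdown arrays P1 and P3, and 8.90 and 9.10 on the control arrays. Both control subpolysomal arrays lay above all 6 polysomal arrays, but the knockdown subpolysomal array P1 lay among the polysomal arrays. The difference between pools was -0.45 (SE 0.32) in knockdown cells and -0.75 (SE 0.32) in control cells. Leaving out 1 array gave -0.94 to 0.0326 in knockdown cells, the ends being the values without subpolysomal array P1 and without P3, and -0.92 to -0.64 in control cells. The second probe of NME2 had -0.35 (SE 0.19) in knockdown and -0.15 (SE 0.19) in control cells, and the third, above background on 7 of 10 arrays, -0.34 (SE 0.10) and -0.02 (SE 0.10). The fourth was above background on only 2 arrays and stayed between 7.49 and 7.65. Averaged over the 4 probes, NME2 differed between pools by -0.23 in control cells, so the size of the NME2 difference rests on which probe is read.

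NME3 and NME6, the members placed at or in mitochondria beside NME4, showed no separation of the pools. NME3 read 7.74, 8.15 and 8.80 in polysomal RNA of knockdown cells (P2, P4 and P5) and 7.87, 8.20 and 9.11 in that of control cells. In subpolysomal RNA NME3 read 8.00 and 8.72 on knockdown arrays P1 and P3, and 8.66 and 8.50 on the control arrays. Its difference between pools was -0.13 (SE 0.44) in knockdown and -0.19 (SE 0.44) in control cells, and leaving out 1 array turned the sign in both, with -0.49 to 0.23 in knockdown and -0.54 to 0.0753 in control cells. The brighter NME6 probe ran from 7.70 to 8.33 in polysomal and from 7.79 to 8.22 in subpolysomal RNA, with a difference of -0.08 (SE 0.23) in knockdown and 0.11 (SE 0.23) in control cells. Leaving out 1 array gave -0.25 to 0.0443 in knockdown and -0.10 to 0.32 in control cells. The other NME6 probe, above background on 7 of 10 arrays, differed by 0.05 (SE 0.09) and -0.02 (SE 0.09). The background limit of the arrays was 197.3 to 199.6 deposited units. In subpolysomal RNA the brightest probes of NME2, NME3 and NME6 read at most 538.2, 410.1 and 298.1 units, and the second NME1 probe 639.5. A fall as large as that of NME4 could not be seen on these or the dimmer probes. Only the brightest NME1 probe had room for it.

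**Figure D2:**
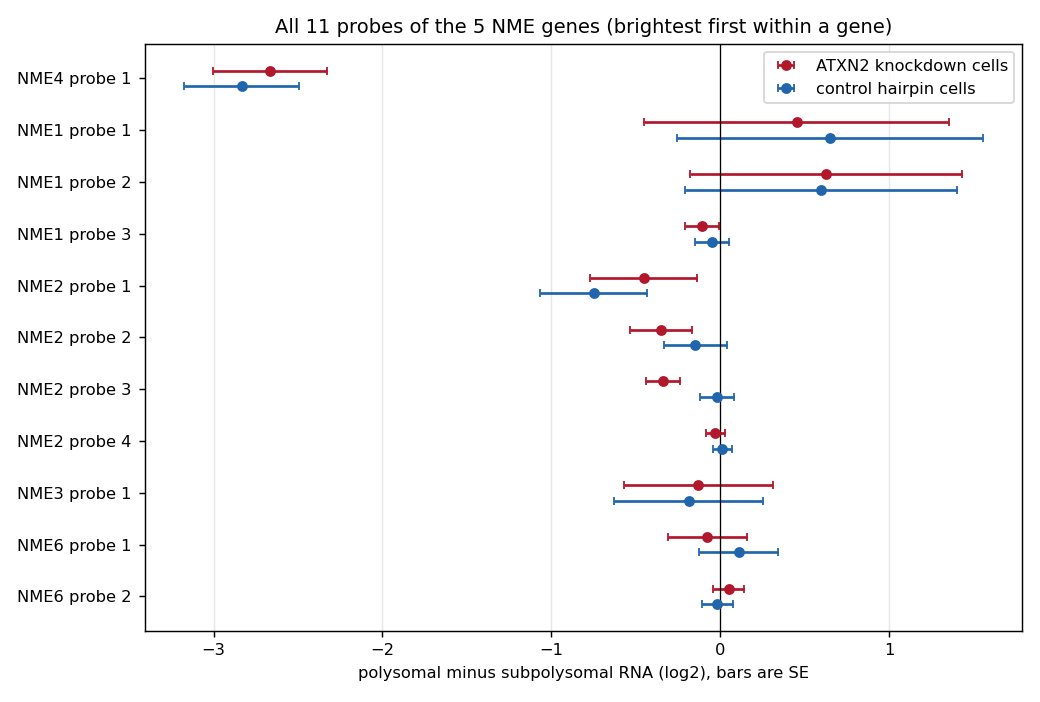
Polysomal minus subpolysomal RNA on the log2 scale (horizontal axis) for each of the 11 probes, with ATXN2 knockdown cells in red above control hairpin cells in blue and bars for the SE of the fit. NME4 stands at -2.67 and -2.83, and the other 10 probes lie between -0.75 and 0.65. Apart from the brightest NME1 probe, those probes read too close to background in subpolysomal RNA to fall as far as NME4.

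Over the 10 arrays, the distance in pattern between NME4 and each paralogue was measured as the root mean square difference of log2 values centred on each probe's mean. It was 1.16 for NME2, 1.36 for NME3, 1.44 for NME6 and 1.89 for NME1. Among 13736 genes ordered by their distance to NME4, NME2 was number 720, NME3 number 3097, NME6 number 8818 and NME1 number 13234. The values were centred but not scaled, so the spread of each probe over the arrays also enters the distance. The 5 genes nearest to NME4 were NENF at 0.29, the zinc transporter SLC30A5 at 0.35, the long noncoding RNA OIP5-AS1 at 0.41, GUK1 at 0.43 and TMEM183A at 0.44. NENF, a secreted neurotrophic factor, differed between pools by -2.55 (SE 0.42) in knockdown and -2.23 (SE 0.42) in control cells, with limma adjusted p of 0.0983 and 0.227. OIP5-AS1 fell in polysomal RNA of both, with -2.13 in knockdown (SE 0.21, limma adjusted p 0.0282) and -1.93 in control cells (SE 0.21, limma adjusted p 0.0432). With a trended and robust prior, and with only the arrays compared, limma called 0 of all probes in either kind of cell, OIP5-AS1 included. The probes of SLC30A5 disagreed: the brightest differed by -2.16 (SE 0.43) in knockdown and -2.05 (SE 0.43) in control cells, while the second read 0.48 (SE 0.35) and 0.60 (SE 0.35). These genes were picked for their likeness over the same 10 arrays, which share the pools, so their likeness is no separate evidence on NME4. That choice also favours large pool differences, so the p-values given for the pool differences of these genes are no independent tests.

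GUK1 is the guanylate kinase that makes GDP from GMP, and GDP is a substrate of the NME enzymes. Its probe read 8.43, 8.75 and 9.16 in polysomal RNA of knockdown cells (P2, P4 and P5) and 8.59, 8.71 and 8.98 in that of control cells. In subpolysomal RNA GUK1 read 10.54 and 10.79 on knockdown arrays P1 and P3, and 11.51 and 10.56 on the control arrays. All polysomal arrays lay below all subpolysomal arrays, as for NME4 and for 3.22% of the 26476 kept probes. GUK1 was picked for its likeness to NME4 on these arrays, so nothing is read from that separation. Its difference between pools was -1.88 (SE 0.31) in knockdown and -2.27 (SE 0.31) in control cells. It did not pass, with limma adjusted p of 0.103 and 0.0932. CMPK1, the cytosolic kinase of CMP and UMP, stood at -1.47 (SE 0.37, adjusted p 0.307) in knockdown and -1.55 (SE 0.37, adjusted p 0.363) in control cells, and its second probe at -1.38 (SE 0.53) and -1.15 (SE 0.53).

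The list of nucleotide kinases outside the NME family holds enzymes that phosphorylate nucleosides or nucleoside monophosphates, ahead of the step that NME enzymes complete. In it 16 of 21 genes were measured and 0 passed in either direction in either kind of cell. The list had 10 of 16 genes lower in polysomal RNA of knockdown cells with a median of -0.06, and 11 of 16 lower in control cells with a median of -0.03, against medians of 0.03 and 0.01 over all 13737 genes, of which 42.1% were lower in knockdown and 45.6% in control cells. At an unadjusted p under 0.05 limma had 2 of the 16 genes in knockdown and 3 in control cells. Of all 13737 genes, 1204 in knockdown and 879 in control cells reached that level, and of all probes 7.68% and 5.63%. GUK1 and CMPK1 lie apart from the middle of their own list. Mitochondrial AK3, which phosphorylates AMP with GTP, read -0.61 (SE 0.46) in knockdown and -0.58 (SE 0.46) in control cells, and mitochondrial deoxyguanosine kinase DGUOK read 0.62 (SE 0.30) and 0.77 (SE 0.30).

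In purine synthesis and salvage, 18 genes were measured and 1 passed, in control cells. ADA, which deaminates adenosine, stood at -0.63 (SE 0.09, limma adjusted p 0.0645) in knockdown cells, and in control cells it fell in polysomal RNA by 0.96 (SE 0.09, limma adjusted p 0.0288). ADA read 8.72, 8.55 and 8.72 in polysomal RNA of knockdown cells and 8.54, 8.50 and 8.51 in that of control cells, against 9.16 and 9.43 in subpolysomal RNA of knockdown and 9.48 and 9.48 in that of control cells. Of all 26476 probes, 0.136% fell in polysomal RNA of knockdown cells and 0.0227% rose (36 and 6 probes, together 0.159%). In control cells 0.117% fell and 0.0113% rose (31 and 3 probes, together 0.128%). ADA passed in only 3 of the 10 fits that left out 1 array, with adjusted p of 0.0366 to 0.148, and did not pass when only the control arrays were fitted (adjusted p 0.13) or with a trended and robust prior (adjusted p 0.863). It no longer passed without any of the 5 control arrays, nor without knockdown polysomal array P2 or P5. With the pair number as a random block it passed in control cells at 0.0462.

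Of the purine list, 10 of 18 genes (55.6%) were higher in polysomal RNA of knockdown cells (median 0.10) and 11 of 18 (61.1%) in control cells (median 0.16). These shares are near those of all 13737 genes, of which 57.9% were higher in knockdown and 54.4% in control cells. PNP, the purine nucleoside phosphorylase, read 1.02 (SE 0.40) in knockdown and 0.71 (SE 0.40) in control cells, and PPAT, which commits the purine pathway, 0.69 (SE 0.30) and 0.50 (SE 0.30). Pyrimidine synthesis and salvage had 9 genes measured, 0 passed, and medians of 0.09 and 0.05. Deoxynucleotide supply had 8 measured, 0 passed, and medians of 0.25 and 0.055, with thymidylate synthase TYMS at 1.20 (SE 0.67) in knockdown and 0.74 (SE 0.67) in control cells. The medians of these lists were thus above 0, as were those of all 13737 genes (0.03 in knockdown and 0.01 in control cells).

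NME4 acts at the mitochondrial inner membrane, where it is known to serve the fusion GTPase OPA1 and to bind cardiolipin, and the genes of that setting were listed for this reason. Of the genes for mitochondrial dynamics and cardiolipin, 22 were measured, 0 passed, and the medians were -0.07 in knockdown and -0.06 in control cells. OPA1, named after its values were seen, read 0.44 (SE 0.48) in knockdown and 0.12 (SE 0.48) in control cells. The gene of that list farthest down was PTPMT1, a phosphatase of cardiolipin synthesis, at -1.68 (SE 0.75, adjusted p 0.683) and -1.37 (SE 0.75, adjusted p 0.999). Mitochondrial nucleotide enzymes and carriers, a list that shares AK3, DGUOK and others with those above, had 14 measured, 0 passed, and medians of 0.14 and 0.05. In the SET complex, of which NME1 is a nuclease subunit, 5 genes were measured, 0 passed, and SET itself read -0.02 (SE 0.42) in knockdown and -0.52 (SE 0.42) in control cells.

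**Figure D3:**
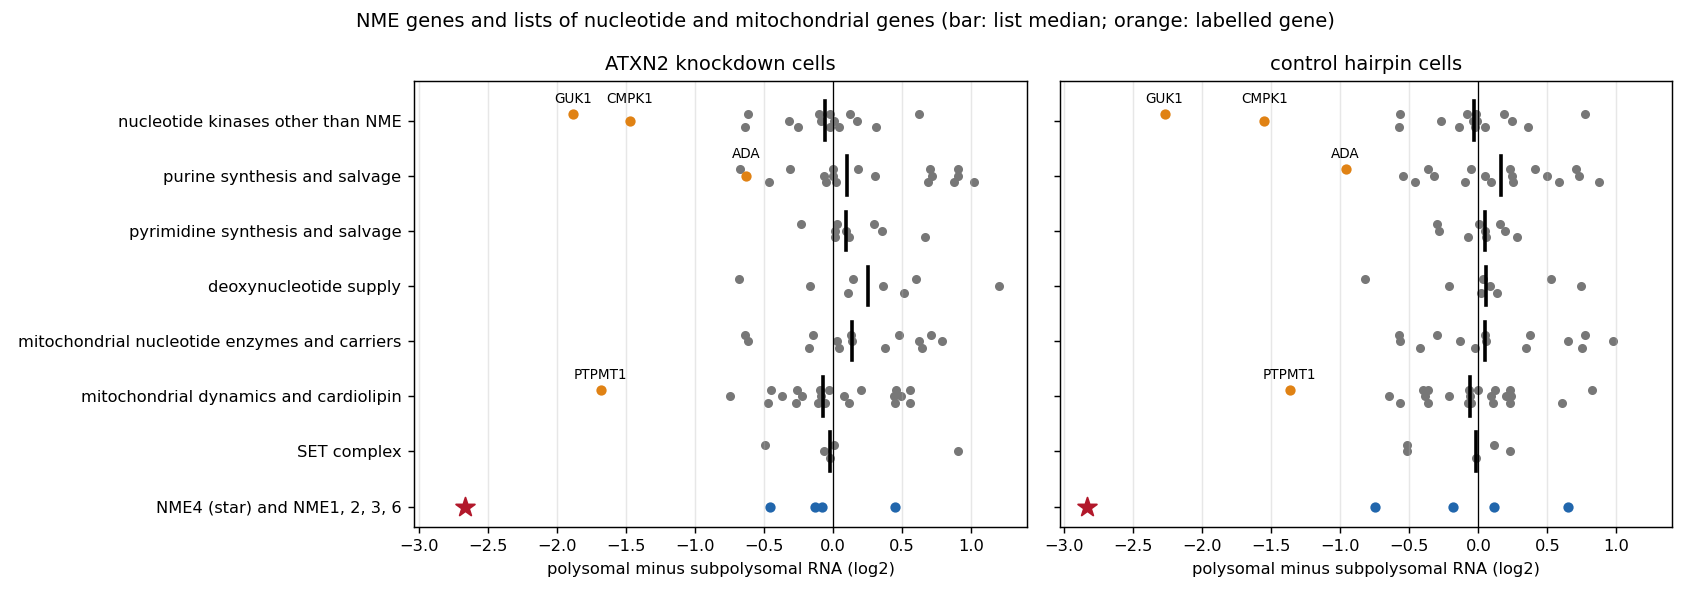
Polysomal minus subpolysomal RNA on the log2 scale (horizontal axis) in knockdown cells on the left and control cells on the right, with a point for each measured gene, a bar for the median of each list, orange points for labelled genes, a star for NME4 and blue points for NME1, NME2, NME3 and NME6. The list medians lie between -0.07 and 0.25, and GUK1 at -1.88 and -2.27 is the gene nearest to NME4 at -2.67 and -2.83.

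The brightest NME1 probe varied between array pairs. Its pair means were 10.80, 12.12 and 12.87 in P2, P4 and P5 and 10.74 and 12.02 in P1 and P3. The 2 brighter NME1 probes disagreed on the pairs: the second probe had 9.85, 8.20 and 10.25 in P2, P4 and P5 and 9.21 and 8.43 in P1 and P3, so P4 was high on the first and low on the second. The bright probe annotated to the NME1-NME2 readthrough transcript, which joins both genes, had 8.71, 11.63 and 11.20 in P2, P4 and P5. In P1 and P3 it had 9.28 and 12.80, low in the same pairs P1 and P2 as the brightest NME1 probe. Probe sequences were not examined, so whether it also detects mRNA of NME1 or NME2 alone is not known. The third ACTB probe was low in P1 and P2 too, at 7.95, 12.57 and 10.91 against 8.19 and 12.58 in the same order, although the other ACTB probes did not drop in P1. The part of RNA quality or batch in these pair differences was not tested. For NME4 the pair means were 9.04, 8.82 and 9.29 in P2, P4 and P5 and 12.18 and 11.42 in P1 and P3. P1 and P2, both low for NME1, hold different RNA pools, so nothing on the pair differences is read from their distance for NME4.

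**Figure D4:**
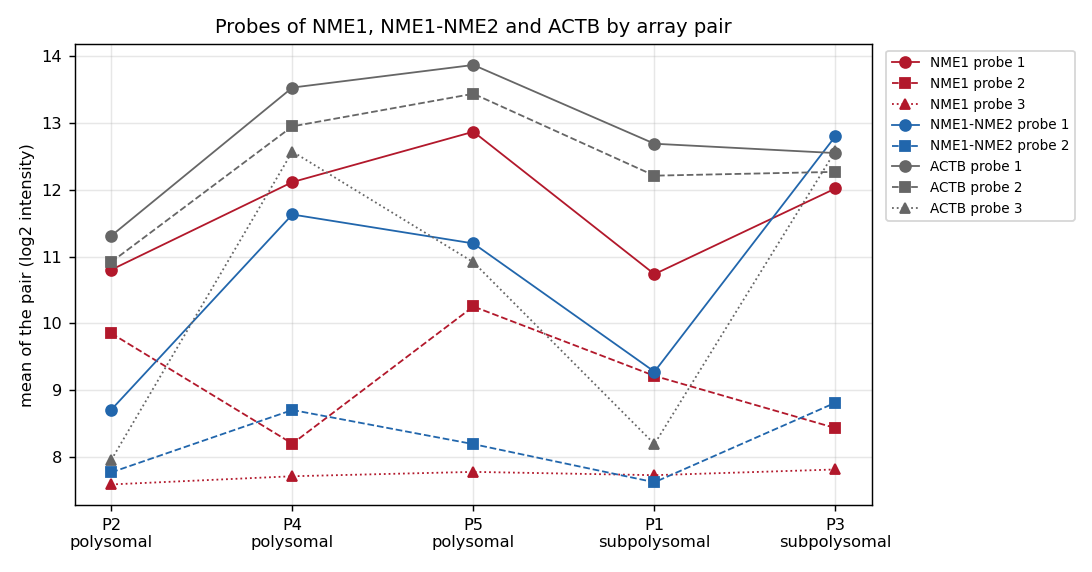
Mean of the knockdown and control array of each pair on the log2 scale (vertical axis) by pair (horizontal axis), for the 3 probes of NME1 in red, the 2 probes of NME1-NME2 in blue and the 3 probes of ACTB in grey. The brightest NME1 probe, both NME1-NME2 probes and the third ACTB probe are lower in P1 and P2 than in P3, P4 and P5.

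Of the other NME genes, most were near background. NME5 was above background on 0 of 10 arrays, NME9 on 3 and NME8, a ciliary and sperm protein, on 5. NME8 stood between 7.52 and 7.71 on all arrays, with a difference between pools of 0.03 (SE 0.05) in knockdown and -0.15 (SE 0.05, adjusted p 0.66) in control cells. The bright NME1-NME2 probe had -0.92 (SE 1.69) and -0.14 (SE 1.69), with the pair differences above in its SE. None of these differences passed the test.

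The hairpin against ATXN2 was the factor the study varied, and 0 of the 11 NME probes passed the test in any comparison of knockdown with control. In polysomal RNA knockdown minus control was 0.06 (SE 0.30, 95% confidence interval -0.65 to 0.77, n = 3 against 3) for NME4 and -0.16 (SE 0.81, -2.06 to 1.75) for NME1. For NME2, NME3 and NME6 it was -0.06 (SE 0.28), -0.16 (SE 0.39) and -0.20 (SE 0.21). In subpolysomal RNA (n = 2 against 2) NME4 read -0.11 (SE 0.37, -0.98 to 0.77), NME1 0.04 (SE 0.99), NME2 -0.35 (SE 0.35), NME3 -0.22 (SE 0.48) and NME6 -0.01 (SE 0.26). The limma adjusted p was 1.0 for each probe in each of these comparisons. Without control polysomal array P2 the polysomal difference was 0.14 for NME4, -0.74 for NME1, -0.17 for NME2, -0.42 for NME3 and -0.36 for NME6. The SEs and intervals above come from the fit of group means, which counts paired arrays as independent. With the pair number as a block the polysomal differences were the same and their SEs smaller. Those SEs were 0.15 for NME4, 0.37 for NME1, 0.17 for NME2, 0.18 for NME3 and 0.13 for NME6. No member passed in that fit either (smallest limma adjusted p 0.774). The intervals of the group fit are wide, above all for NME1, and a p that misses the threshold does not show that a gene was unaltered.

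The change of the polysomal to subpolysomal difference with knockdown was 0.17 (SE 0.48, 95% confidence interval -0.96 to 1.29) for NME4, and averaged over both pools knockdown minus control was -0.02 (SE 0.24, -0.59 to 0.54) for that gene. Both signs turned without quantile normalization, to -0.088 and 0.0918, as did that of the subpolysomal difference, to 0.14. Over the 11 probes and 4 knockdown comparisons the differences ran from -0.35 to 0.30, and 0 of 44 reached an unadjusted p under 0.05, the smallest being 0.0593 for the third probe of NME2. limma called 0 of 26476 probes (0%) in each of these comparisons, with 404 (1.53%) at an unadjusted p under 0.05 in polysomal RNA, 228 (0.861%) in subpolysomal RNA, 226 (0.854%) in the average and 299 (1.13%) for the change with knockdown. With the pair number as a block limma also called 0 in each, with 1645, 582, 899 and 966 at that unadjusted level, and the smallest unadjusted p among the members was 0.0598.

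Within pairs, the knockdown differences of NME4 were -0.29, 0.03 and 0.43 in P2, P4 and P5 and -0.22 and 0.00 in P1 and P3. For NME1 the differences were -0.06, 0.74 and -1.15 in P2, P4 and P5 and -0.07 and 0.15 in P1 and P3. NME1 was higher in the knockdown array of P4 and lower in that of P5, while NME4 was higher in that of P5. NME2 had -0.18, 0.18 and -0.16 against -0.74 and 0.03 in the same order, NME3 -0.13, -0.05 and -0.31 against -0.66 and 0.22, and NME6 -0.09, 0.04 and -0.55 against 0.08 and -0.11. The brightest probe of each gene was higher in 3 of 5 pairs for NME4, in 2 of 5 for NME1, NME2 and NME6, and in 1 of 5 for NME3. The dimmer NME6 probe was lower in 5 of 5 pairs, by 0.01 to 0.15. That probe is 1 of the 11 member probes and lay near background, from 7.57 to 7.85 over all arrays. The share of all kept probes that were lower in every pair was not counted, so nothing is read from its shared sign.

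**Figure D5:**
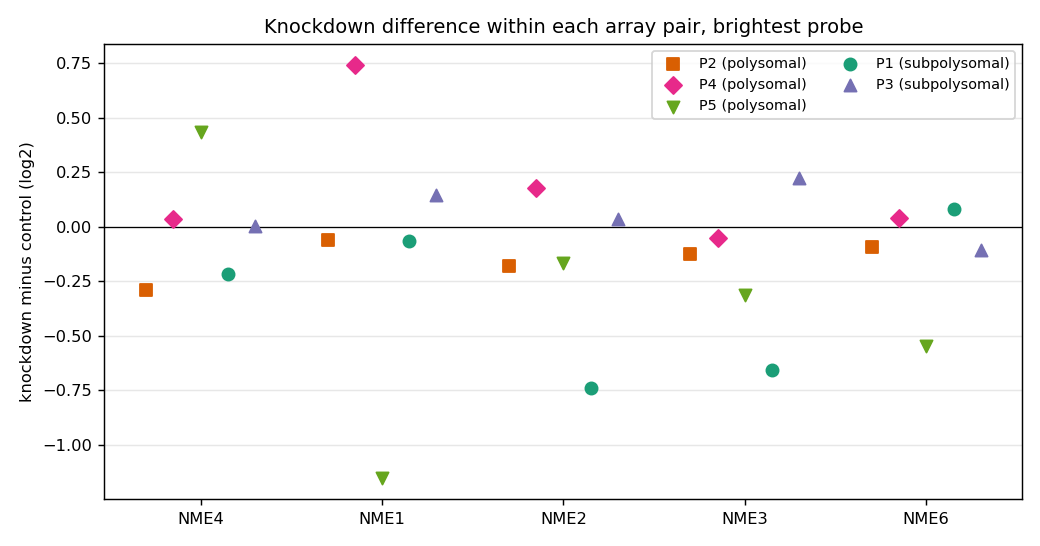
Knockdown minus control on the log2 scale (vertical axis) within each array pair, for the brightest probe of NME4, NME1, NME2, NME3 and NME6, with the polysomal pairs P2, P4 and P5 left of the subpolysomal pairs P1 and P3. The points lie on both sides of 0 for every gene, and the widest spread is that of NME1, with -1.15 in P5 and 0.74 in P4.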

How the data were processed

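RNA of 10 samples was hybridised to Illumina beadchips. The intensity values used are those deposited by the authors, on a linear scale, and how they were normalized is not stated by any source used. The submitters' processing notes name R 2.15. A second deposited table has 20 columns that match no sample label and was not used. Intensities were log2-transformed and quantile-normalized. Probes above an estimated background (0.05 upper tail of the mirrored lower side of each array's distribution) on at least 2 arrays were kept, 26476 of 47323. Gene names come from the platform annotation, updated through RefSeq identifiers for 30074 of 30113 probes with 1 symbol. Means of the 4 groups were estimated together from all 10 arrays (limma 3.58.1, R 4.3.3; lmFit and eBayes, tested on simulated data), with Benjamini-Hochberg adjustment over all kept probes, two-sided, at 0.05. Where replicates are called n, nothing says that arrays of a pool come from separate cultures beyond the 3 experiments named, so p-values measure the spread between arrays. The number of arrays limits the precision.

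Arrays of a pair number deviated together (correlations of deviations from group means 0.763, 0.769 and 0.467 in P2, P4 and P5 and 0.917 in P1 and P3), so the numbers pair the arrays, and fits with the pair as a block were run as an alternative. In the fit of group means paired arrays count as independent. Among the kept probes of a gene, that with the highest mean over all arrays leads. From each list the genes with the smallest p in polysomal against subpolysomal RNA of control cells were named (up to 3 lower and 3 higher). Then came the gene with the smallest p for knockdown in polysomal RNA, every list gene that passed, and the 5 genes nearest in pattern to each member. The text prints only some of these, and gives no differences of knockdown against control for list genes. The members and lists were chosen with earlier results of these data known.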

Additional observations from a re-analysis of the deposited data

How the results depend on the processing

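NME4 stayed lower in polysomal RNA in every fit that left out 1 array, at -2.997 to -2.34 in knockdown and -3.27 to -2.39 in control cells; the lowest and highest control values came without control subpolysomal array P3 and P1. With the mean of all its probes, NME2 moved to -0.23 between pools in control cells. The cause of the changes below was not tested.

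The number of probes that passed between pools was less stable than the value of NME4. In knockdown cells it was 42, with 24 on deposited values without quantile normalization and 25 with median centring. In control cells it was 34, with 22 on deposited values, 17 without a filter, 4 with only probes above background on every array and 14 with the pair number as a random block. It was 0 in both kinds of cell with a trended and robust prior, and 0 in both when only the arrays compared were fitted. Leaving out 1 array gave 2 to 40 in knockdown and 1 to 12 in control cells.

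No knockdown value of a member passed under any of 280 alternative values (smallest adjusted p 0.774), and 50 of them had the opposite sign. The replicate block on the pair number called 0 probes in each knockdown comparison. For NME4 the subpolysomal difference was 0.14 on deposited values and 0.13 with median centring, the mean over both pools 0.0918 and 0.0919, and the change with knockdown -0.088 and -0.0843, in that order. With the mean of all probes of a gene, NME2 had 0.0044 in subpolysomal RNA and -0.0664 for the change with knockdown, and NME1 0.0351 for the mean over both pools.

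When 1 array was left out, polysomal RNA gave -0.16 to 0.18 for NME4, -0.74 to 0.56 for NME1, -0.17 to 0.12 for NME2, -0.44 to 0.19 for NME3 and -0.37 to -0.0907 for NME6. Subpolysomal RNA gave -0.55 to 0.33 for NME4, -0.65 to 0.74 for NME1, -0.84 to 0.13 for NME2, -0.58 to 0.14 for NME3 and -0.23 to 0.20 for NME6. The mean over both pools gave -0.24 to 0.20 for NME4, -0.41 to 0.30 for NME1, -0.45 to 0.0394 for NME2 and -0.21 to 0.0001 for NME6. The change with knockdown gave -0.27 to 0.61 for NME4, -0.89 to 0.52 for NME1, -0.19 to 0.78 for NME2, -0.30 to 0.41 for NME3 and -0.40 to 0.0261 for NME6. In that comparison 0 or 1 of all probes passed, 1 without knockdown polysomal array P4.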
